A study of Homo sapiens with 24 samples.

Results

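The BCL2 family was followed across 8 treatment groups of MV4-11, an established human acute myeloid leukaemia line whose label gives the genotype PRMT5 +/+. The 10 genes described here were chosen by name from a list, with earlier results of these data known. All 10 of them were found among the 38048 genes of the gene table. They were the pro-survival genes BCL2, MCL1, BCL2L1 and BCL2A1, the effector gene BAK1, and the BH3-only genes BCL2L11, BID, BMF, BAD and BIK. The second table held 80 of their transcripts among 178398 in all. Poly(A)-selected RNA was sequenced with unstranded libraries, in 8 groups of 3 libraries lettered A, B and C. Cells had received PRT220, an inhibitor of the arginine methyltransferase PRMT5, at 3 nM, or GSK-LSD1, an inhibitor of the lysine demethylase LSD1, at 10 nM, or both together, or the solvent DMSO, each for 3 days. Further groups had received MS023, which inhibits the type I enzymes among arginine methyltransferases, MS023 with the LSD1 inhibitor, MC4455 or MC4491. For those groups the labels gave neither dose nor time, and the LSD1 inhibitor given with MS023 was taken to be GSK-LSD1. The stated question was whether expression could account for the synergy of PRT220 with GSK-LSD1 in killing these cells.

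BCL2 family proteins decide whether the outer mitochondrial membrane is opened and cytochrome c released. Pro-survival members hold the effectors BAK1 and BAX in check, and BH3-only proteins bind the groove of pro-survival members with a short helix, the BH3 region, and so free or directly activate the effectors. In acute myeloid leukaemia BCL2 and MCL1 are the members best known for keeping blasts alive, and BCL2 is the target of the drug venetoclax.

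Library totals ran from 32495446 to 61090593 estimated counts. Every marker of the myeloid list was present, among them CD33 at 59.3 to 82.7 CPM (counts scaled to 1000000 per library) and FLT3 at 578 to 715 CPM, and CD3D and MS4A1 had at most 0.144 and 0 CPM. In 8 libraries RRP9, a ribosomal RNA processing gene, was measured at 0.677 to 1.73 CPM, against 29.1 to 36.2 CPM in the other 16. The 8 were all of PRT220, replicates A and C of MS023, replicate B of MS023 with GSK-LSD1, replicate C of PRT220 with GSK-LSD1, and replicate C of DMSO. With the groups in the fit, 0 of the 10 family genes differed between the 8 and the 16 libraries in edgeR, and the nearest was BCL2 (-0.08 on the log2 scale, adjusted p = 0.0764). The same test called 4.18% of all genes. Whether replicates were separate cultures is not given, and p-values therefore describe the spread between these libraries, which may be technical. In such bulk RNA, fewer cells that express a gene and less of its RNA per cell cannot be told apart.

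What 9 of the 10 genes share in sequence, as searched here, is the BH3 core, a leucine followed after 3 residues by a small residue and an aspartate. The coding stretches around it are shown because this helix is what BH3-only proteins use to bind. They were read from GENCODE 29 transcripts (GRCh38), with the leucine codon and the codons of the small residue and aspartate in capitals. A search of the main coding sequence of each gene for this pattern (leucine, any 3 residues, then glycine, alanine or serine, then aspartate) matched in 9 of the 10. It had 0 matches in BCL2A1. BID had 2 matches, of which the one listed is at its known BH3 region.
BCL2 (chr18:63318352-63318390, minus strand): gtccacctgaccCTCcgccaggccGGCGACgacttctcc
MCL1 (chr1:150578868-150578906, minus strand): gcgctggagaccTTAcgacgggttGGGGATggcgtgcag
BCL2L1 (chr20:31721925-31721963, minus strand): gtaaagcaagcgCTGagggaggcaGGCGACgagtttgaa
BAK1 (chr6:33575390-33575428, minus strand): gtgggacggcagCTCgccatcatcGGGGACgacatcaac
BCL2L11 (chr2:111150091-111150129, plus strand): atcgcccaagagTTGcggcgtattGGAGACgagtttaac
BID (chr22:17739418-17739456, minus strand): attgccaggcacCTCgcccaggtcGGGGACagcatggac
BMF (chr15:40104198-40104236, minus strand): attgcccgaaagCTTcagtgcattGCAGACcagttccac
BAD (chr11:64271625-64271663, minus strand): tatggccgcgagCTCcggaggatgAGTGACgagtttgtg
BIK (chr22:43127704-43127742, plus strand): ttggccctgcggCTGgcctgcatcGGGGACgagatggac

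Each stretch lies within 1 coding exon. The small residue is glycine in 7 of the 9, alanine in BMF and serine in BAD, and the base sequences otherwise differ between genes.

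Per unit of transcript length, MCL1 and BCL2 had the highest levels among the 10 genes in DMSO libraries. Levels of other family genes were not set on this scale. The order was MCL1 (282 ± 13.8 TPM, a level scaled for transcript length and library total), BCL2 (256 ± 21.3), BID (99.6 ± 4.15), BMF (70.2 ± 5.42), BAK1 (40.1 ± 1.78), BCL2L1 (34.0 ± 1.48), BAD (24.7 ± 4.18), BIK (23.3 ± 2.41), BCL2L11 (22.5 ± 1.88) and BCL2A1 (0.745 ± 0.381; SD, n = 3 each). MCL1 and BCL2 overlapped between libraries, as did BAD with BIK and BIK with BCL2L11, and the other neighbours in this order did not. All 10 genes passed the filter on low counts, BCL2A1 with 2 to 29 counts per library.

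The family changed in both directions under PRT220, under GSK-LSD1 and under their combination: BCL2 and BCL2L11 fell and BID and BIK rose in all 3 groups. Of these, the calls of BID and BIK with GSK-LSD1 and of BCL2L11 with PRT220 were lost under other settings or without single libraries, as given for each gene. By edgeR's quasi-likelihood test (p-values adjusted over all genes by Benjamini-Hochberg), 2 members rose and 3 fell with PRT220, where 24.9% of all genes were called (13.8% higher and 11.1% lower). With GSK-LSD1, 2 rose and 4 fell, where 32.6% of all genes were called (17.6% higher and 15% lower). With the combination 2 rose and 3 fell, where 46.5% of all genes were called (24.4% higher and 22.1% lower). With MS023 alone 0 of the 10 were called by edgeR or by DESeq2, 0 had an unadjusted p below 0.05, and 2.25% of all genes were called (0.889% higher and 1.36% lower). MS023 with GSK-LSD1 gave 2 higher and 5 lower members, where 48.4% of all genes were called (25.1% higher and 23.3% lower). MC4455 gave 1 higher and 4 lower, where 37.6% were called (18.5% higher and 19.2% lower), and MC4491 gave 1 higher and 4 lower, where 30.7% were called (15.5% higher and 15.2% lower). The 5 of 10 members called with the combination are a share close to that of all genes. Members whose 3 libraries did not overlap with those of DMSO numbered 5 with PRT220 (36.6% of all genes did not overlap), 5 with GSK-LSD1 (46.2%), 7 with both (53%), 0 with MS023 (17.2%), 6 with MS023 and GSK-LSD1 (51.8%), 6 with MC4455 (47.4%) and 3 with MC4491 (40.1%). The median log2 fold change of the 10 members was -0.04 with PRT220, -0.09 with GSK-LSD1 and -0.14 with both, against 0.00 (PRT220), 0.03 (GSK-LSD1) and 0.04 (both) over all genes tested.

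**Figure D1:**
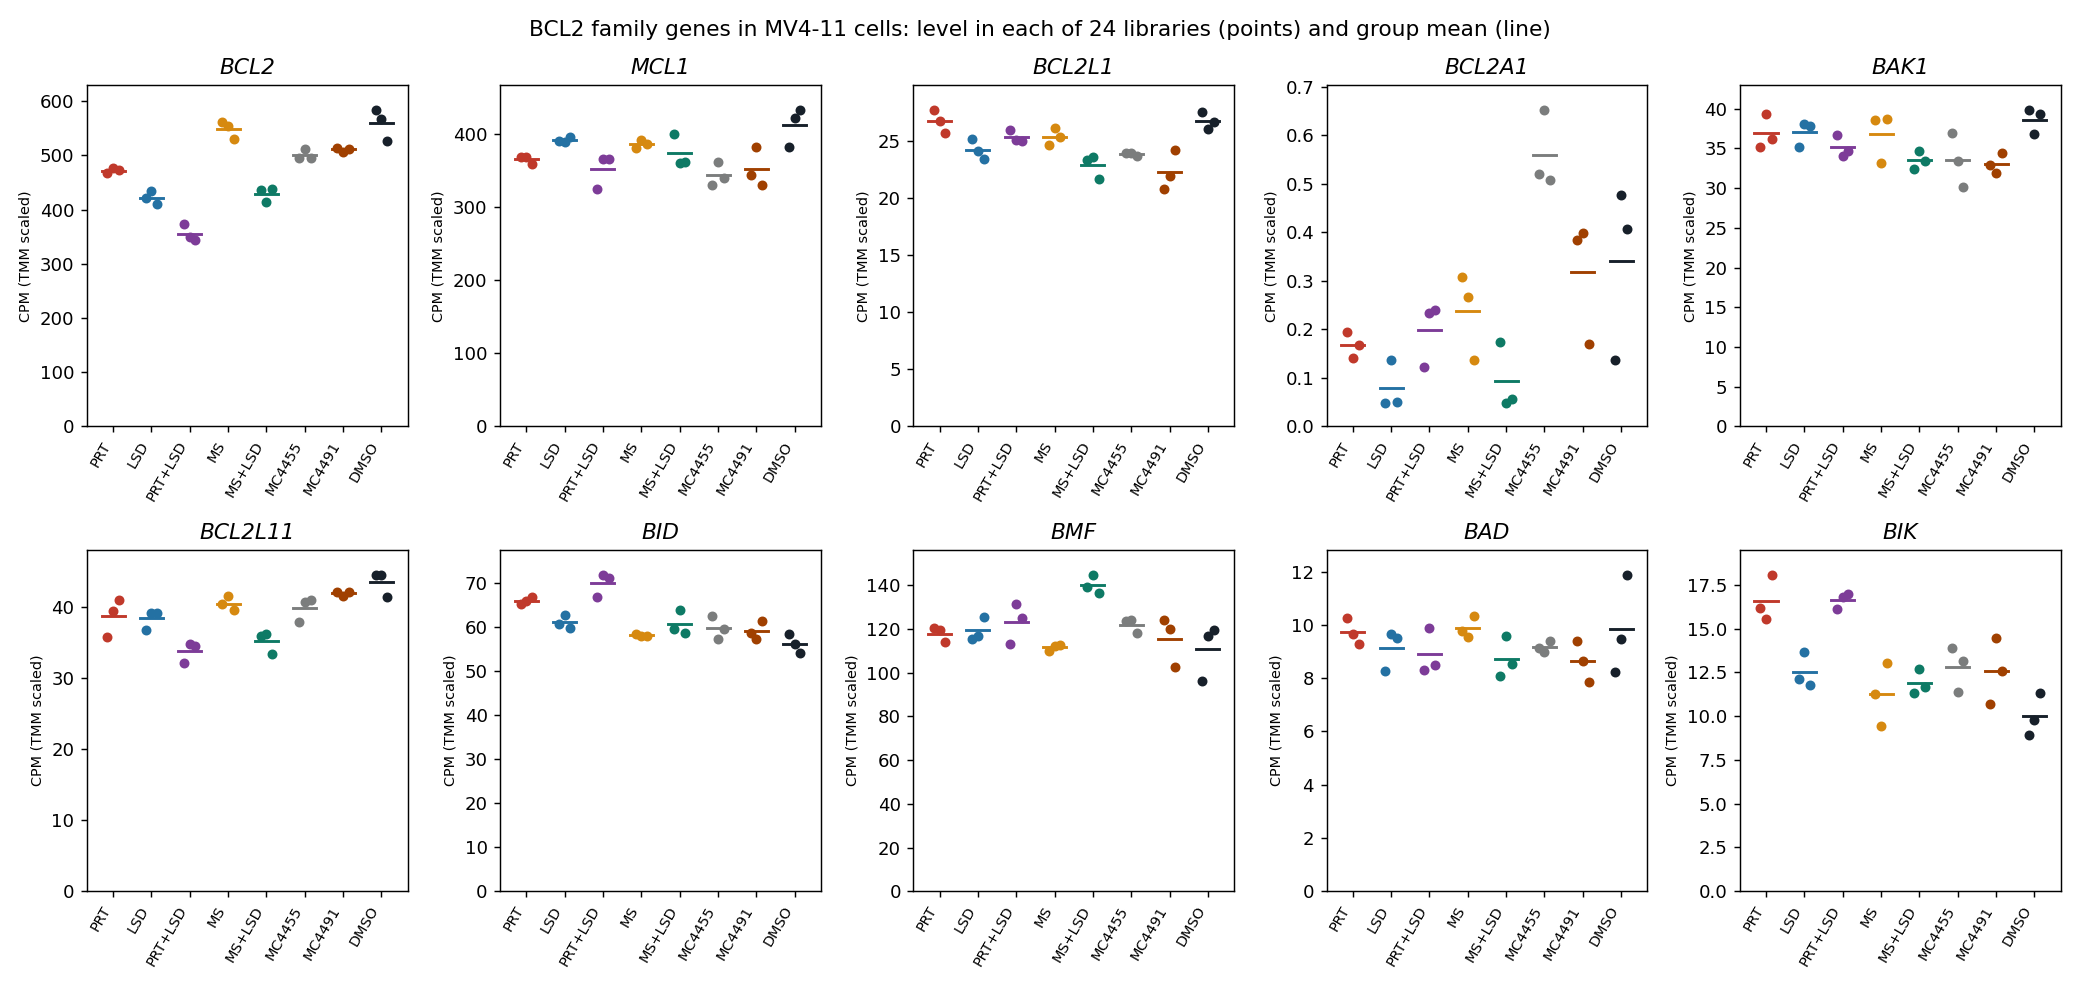
Level of each of the 10 family genes (vertical axis, TMM-scaled CPM, from 0) in the 24 libraries, with 3 points and a mean line per group; PRT is PRT220, LSD is GSK-LSD1 and MS is MS023. BCL2 is lowest in the 3 PRT220 with GSK-LSD1 libraries (344 to 374 CPM) and BIK highest in PRT220 with or without GSK-LSD1 (15.5 to 18.1 CPM).

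BCL2, the founding pro-survival gene, fell in 6 of the 7 treatments, by the most with PRT220 and GSK-LSD1 together. It was measured at 374, 350 and 344 CPM with both agents, 467, 476 and 473 CPM with PRT220, 421, 434 and 410 CPM with GSK-LSD1, and 583, 567 and 526 CPM with DMSO. The libraries of all 3 treated groups lay below those of DMSO, and those of the combination also below those of either single agent. The log2 fold change over DMSO was -0.65 ± 0.04 with both agents (SE, adjusted p = 2.8e-11), a level 36.3% lower. It was -0.24 ± 0.04 with PRT220 (adjusted p = 8.7e-05) and -0.41 ± 0.04 with GSK-LSD1 (adjusted p = 5.1e-08). Within the 8 libraries of low RRP9, where 3 PRT220 libraries meet 1 DMSO library assumed to vary like the others, the PRT220 value was -0.17 and the call was lost (adjusted p = 0.083). In the same 8 libraries the combination and DMSO are each represented by replicate C alone, and the value was -0.64, without replication.

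BCL2 was lower with the combination than with either agent, with a log2 fold change of -0.41 over PRT220 (adjusted p = 5.6e-08) and -0.24 over GSK-LSD1 (adjusted p = 0.00021). The sum of the single-agent changes was -0.65, and the interaction, the combination minus that sum, was -0.00025 (95% interval -0.11 to 0.11). With MS023 BCL2 had 562, 555 and 530 CPM, all within the DMSO range, with a log2 fold change of -0.03 (95% interval -0.10 to 0.05). With MS023 and GSK-LSD1 it had 436, 414 and 438 CPM, below every DMSO library (-0.38 ± 0.04, adjusted p = 1e-07), and it did not differ detectably from GSK-LSD1 alone (0.03, 95% interval -0.05 to 0.10). It fell slightly with MC4455 (-0.16, adjusted p = 0.0035) and MC4491 (-0.13, adjusted p = 0.016), and the MC4491 call was lost with only those 6 libraries in the fit, with protein-coding transcripts only, without DMSO replicate A or without MC4491 replicate B.

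MCL1, a short-lived pro-survival protein that can stand in for BCL2, fell with PRT220, with the combination, with MC4455 and with MC4491. It had 325, 367 and 366 CPM with PRT220 and GSK-LSD1, 370, 369 and 360 CPM with PRT220, 391, 390 and 396 CPM with GSK-LSD1, and 383, 422 and 433 CPM with DMSO. The combination and PRT220 libraries all lay below those of DMSO, and GSK-LSD1 overlapped with DMSO. The log2 fold change was -0.23 with the combination (adjusted p = 0.0028) and -0.17 with PRT220 (adjusted p = 0.031). The PRT220 call was lost without DMSO replicate B, DMSO replicate C or PRT220 replicate C (highest adjusted p = 0.109). The log2 fold change with GSK-LSD1 was -0.07 ± 0.06 (adjusted p = 0.36). It fell with MC4455 (-0.26, adjusted p = 0.0016) and MC4491 (-0.23, adjusted p = 0.0059), where 1 library overlapped with DMSO and the call was lost with only those 6 libraries or with the 16 libraries that kept RRP9 (highest adjusted p = 0.0605).

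BCL2L1, whose long form is the pro-survival protein BCL-XL, had 25.2, 24.1 and 23.4 CPM with GSK-LSD1, 23.4, 23.7 and 21.7 CPM with MS023 and GSK-LSD1, and 27.5, 26.1 and 26.7 CPM with DMSO. Both treated groups lay below DMSO. Its log2 fold change was -0.22 with MS023 and GSK-LSD1 (adjusted p = 0.0013) and -0.14 with GSK-LSD1 alone (adjusted p = 0.036), a call lost without DMSO replicate A, without GSK-LSD1 replicate C or in the 16 libraries that kept RRP9. Within the 8 libraries of low RRP9, where only replicate B of MS023 with GSK-LSD1 meets replicate C of DMSO, the value was -0.20 and the call was lost. It fell with MC4491 (-0.26, adjusted p = 0.00091) and MC4455 (-0.16, adjusted p = 0.016), a call lost without DMSO replicate A, with protein-coding transcripts only and in the 16 libraries that kept RRP9. Its log2 fold change with PRT220 was -0.00017, with a 95% interval of -0.10 to 0.10. With PRT220 and GSK-LSD1 it was -0.08 and not called (adjusted p = 0.23), though those libraries lay below DMSO. An antisense gene, ABALON, shares 1424 exon bases with BCL2L1, and these unstranded libraries cannot tell reads of the 2 apart.

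BCL2A1, a pro-survival gene induced by NF-kB in myeloid cells, was near the limit of detection. Its libraries had 2, 6 and 2 counts with GSK-LSD1, 6, 2 and 2 counts with MS023 and GSK-LSD1, and 5, 29 and 18 counts with DMSO. The groups overlapped through DMSO replicate A. The ratio of summed counts per total count was 0.216 for GSK-LSD1 over DMSO (95% exact counting interval 0.0978 to 0.429) and 0.244 for MS023 with GSK-LSD1 (0.111 to 0.485). These intervals cover counting error only. Both passed the edgeR test (adjusted p = 0.0054 and 0.0071), and the second was lost in the 16 libraries that kept RRP9 (adjusted p = 0.13). MC4455 libraries had 20, 25 and 17 counts and were not called (adjusted p = 0.25).

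BAK1, which forms the pore in the outer mitochondrial membrane, was called in none of the 3 groups with PRT220, GSK-LSD1 or both. It had 36.6, 34.0 and 34.7 CPM with both agents, against 39.8, 36.8 and 39.3 CPM with DMSO, a log2 fold change of -0.14 ± 0.07 (adjusted p = 0.12). It fell with MS023 and GSK-LSD1 (-0.20, adjusted p = 0.019), MC4455 (-0.20, adjusted p = 0.025) and MC4491 (-0.22, adjusted p = 0.019). Each of these calls was lost when DMSO replicate A or C was left out, or either of 2 of the 3 treated libraries (highest adjusted p = 0.155). The MC4455 libraries overlapped with DMSO. The MC4455 call was also lost with only the groups compared in the fit and with protein-coding transcripts only. In the 16 libraries that kept RRP9 the MC4455 and MC4491 calls were lost.

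**Figure D2:**
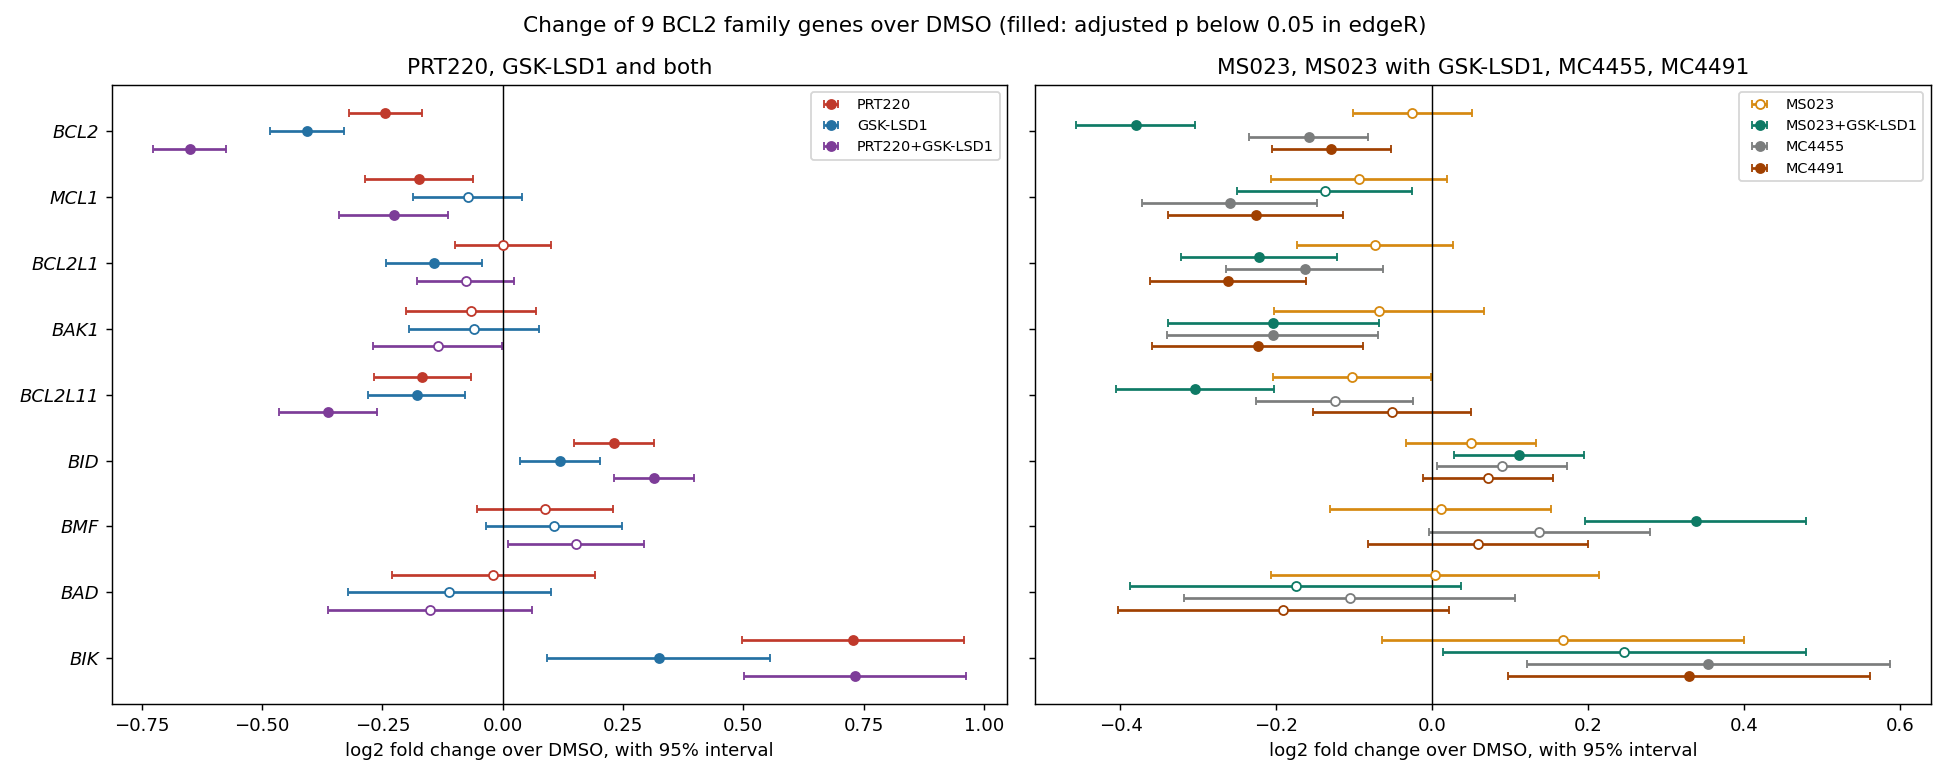
Log2 fold change over DMSO (horizontal axis) with its 95% interval for 9 family genes, listed down the axis; BCL2A1 is left out because its intervals span several log2 units. Filled points passed the adjusted p threshold of 0.05, and BCL2 with both agents (-0.65) lies farthest below 0, and BIK with PRT220, alone or with GSK-LSD1 (0.73 each), farthest above.

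BCL2L11 encodes BIM, a BH3-only protein that binds all pro-survival members. It had 32.1, 34.8 and 34.5 CPM with PRT220 and GSK-LSD1, 35.8, 39.4 and 40.9 CPM with PRT220, 36.8, 39.2 and 39.2 CPM with GSK-LSD1, and 44.5, 44.5 and 41.4 CPM with DMSO. Every library of the treated groups lay below the lowest DMSO library. Its log2 fold change was -0.36 with both agents (adjusted p = 6.8e-06), -0.17 with PRT220 (adjusted p = 0.021) and -0.18 with GSK-LSD1 (adjusted p = 0.01). The combination was also lower than PRT220 (-0.20, adjusted p = 0.0051) and GSK-LSD1 (-0.18, adjusted p = 0.019). Within the 8 libraries of low RRP9 its value over PRT220 was -0.18, and the call was lost. The PRT220 call was lost with a term for the libraries of low RRP9 (adjusted p = 0.058), with only the 6 libraries compared, and without DMSO or PRT220 replicate A. The call of the combination over GSK-LSD1 was lost without GSK-LSD1 replicate B or C or without combination replicate A (highest adjusted p = 0.102). Within the 8 libraries of low RRP9, with replicate C alone of each group, the combination gave -0.29 over DMSO and the call was lost. BCL2L11 also fell with MS023 and GSK-LSD1 (-0.30, adjusted p = 6.5e-05). Within the 8 libraries, replicate B alone of that group gave -0.22 against replicate C of DMSO, and the call was lost. The long noncoding RNA gene MIR4435-2HG shares 727 exon bases with BCL2L11 on the other strand.

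BID, which links death receptors to mitochondria once caspase-8 cuts it, rose. It had 66.8, 71.8 and 71.2 CPM with PRT220 and GSK-LSD1, 65.3, 66.0 and 66.7 CPM with PRT220, 60.8, 62.8 and 59.7 CPM with GSK-LSD1, and 58.4, 56.1 and 54.2 CPM with DMSO. All 9 treated libraries were above the 3 of DMSO. The log2 fold change was 0.31 ± 0.04 with both agents (adjusted p = 3.4e-06) and 0.23 ± 0.04 with PRT220 (adjusted p = 0.00035). It was 0.27 for PRT220 within the 8 libraries of low RRP9, where DMSO has replicate C alone. With GSK-LSD1 it was 0.12 (adjusted p = 0.035) and with MS023 and GSK-LSD1 0.11 (adjusted p = 0.037), and each of these calls was lost under 6 of 8 other settings, without DMSO replicate B or C, and without some of the treated libraries (GSK-LSD1 replicate A or B, MS023 with GSK-LSD1 replicate B). The combination was higher than GSK-LSD1 (0.19, adjusted p = 0.0033).

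BIK, a BH3-only protein of the endoplasmic reticulum membrane, had the largest rise among the 10 members. It had 16.2, 15.5 and 18.1 CPM with PRT220, 16.1, 16.8 and 17.0 CPM with PRT220 and GSK-LSD1, 12.1, 13.7 and 11.8 CPM with GSK-LSD1, and 8.92, 9.79 and 11.3 CPM with DMSO. No library of these treated groups overlapped with DMSO. The level was 65.6% higher with PRT220 (log2 fold change 0.73 ± 0.12, adjusted p = 1e-04) and 66.1% higher with both agents (0.73 ± 0.12, adjusted p = 3.1e-05). Within the 8 libraries of low RRP9, with replicate C alone of DMSO and of the combination, these log2 fold changes were 0.54 and 0.55.

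The combination did not differ detectably from PRT220 in BIK (0.0042, 95% interval -0.22 to 0.23). The sum of the single-agent changes was 1.05, and the interaction was -0.32 ± 0.17 (95% interval -0.64 to 0.01, adjusted p = 0.54). With GSK-LSD1 alone the log2 fold change was 0.32 (adjusted p = 0.041), with MC4455 0.35 (adjusted p = 0.024) and with MC4491 0.33 (adjusted p = 0.041), and each of these calls was lost in 4 of 6 fits that left out a library. These left out DMSO replicate A or B in each case, GSK-LSD1 replicate A or B, MC4455 replicate A or C, and MC4491 replicate B or C (highest adjusted p = 0.22). The combination was higher than GSK-LSD1 alone by 0.41 (adjusted p = 0.022), also lost in 4 of 6 such fits: without GSK-LSD1 replicate A or C and without combination replicate B or C. The BIK calls with GSK-LSD1, MC4455 and MC4491 over DMSO were also lost with only the groups compared in the fit. Those with GSK-LSD1 and MC4491 were lost too with RLE scaling or without the low-count filter. BIK has 1 transcript in the table.

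BMF, a BH3-only protein held at the cytoskeleton until it is released, rose with MS023 and GSK-LSD1. It had 139, 145 and 136 CPM there, 110, 112 and 113 CPM with MS023, 115, 117 and 126 CPM with GSK-LSD1, and 96.0, 117 and 120 CPM with DMSO. Every library of the combination was above all of the other 3 groups. The log2 fold change was 0.34 ± 0.07 over DMSO (adjusted p = 0.00066), 0.33 over MS023 (adjusted p = 0.0011) and 0.23 over GSK-LSD1 (adjusted p = 0.044). The last was lost in all 6 fits that left out a library of the 2 groups (highest adjusted p = 0.128), and the second in the 16 libraries that kept RRP9 (adjusted p = 0.11). The interaction was 0.22 ± 0.10 (adjusted p = 0.6). With PRT220 and GSK-LSD1 the log2 fold change was 0.15 ± 0.07 (adjusted p = 0.091). BMF-AS1 shares 461 exon bases with BMF on the other strand.

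BAD, whose binding to BCL2 and BCL-XL is blocked by survival kinases, was called in no comparison. It ranged from 8.30 to 9.89 CPM with PRT220 and GSK-LSD1 and from 8.24 to 11.9 CPM with DMSO, and the groups overlapped. The 95% interval of the log2 fold change with both agents was -0.36 to 0.06. The neighbouring gene GPR137 shares 404 exon bases with BAD on the other strand.

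**Figure D3:**
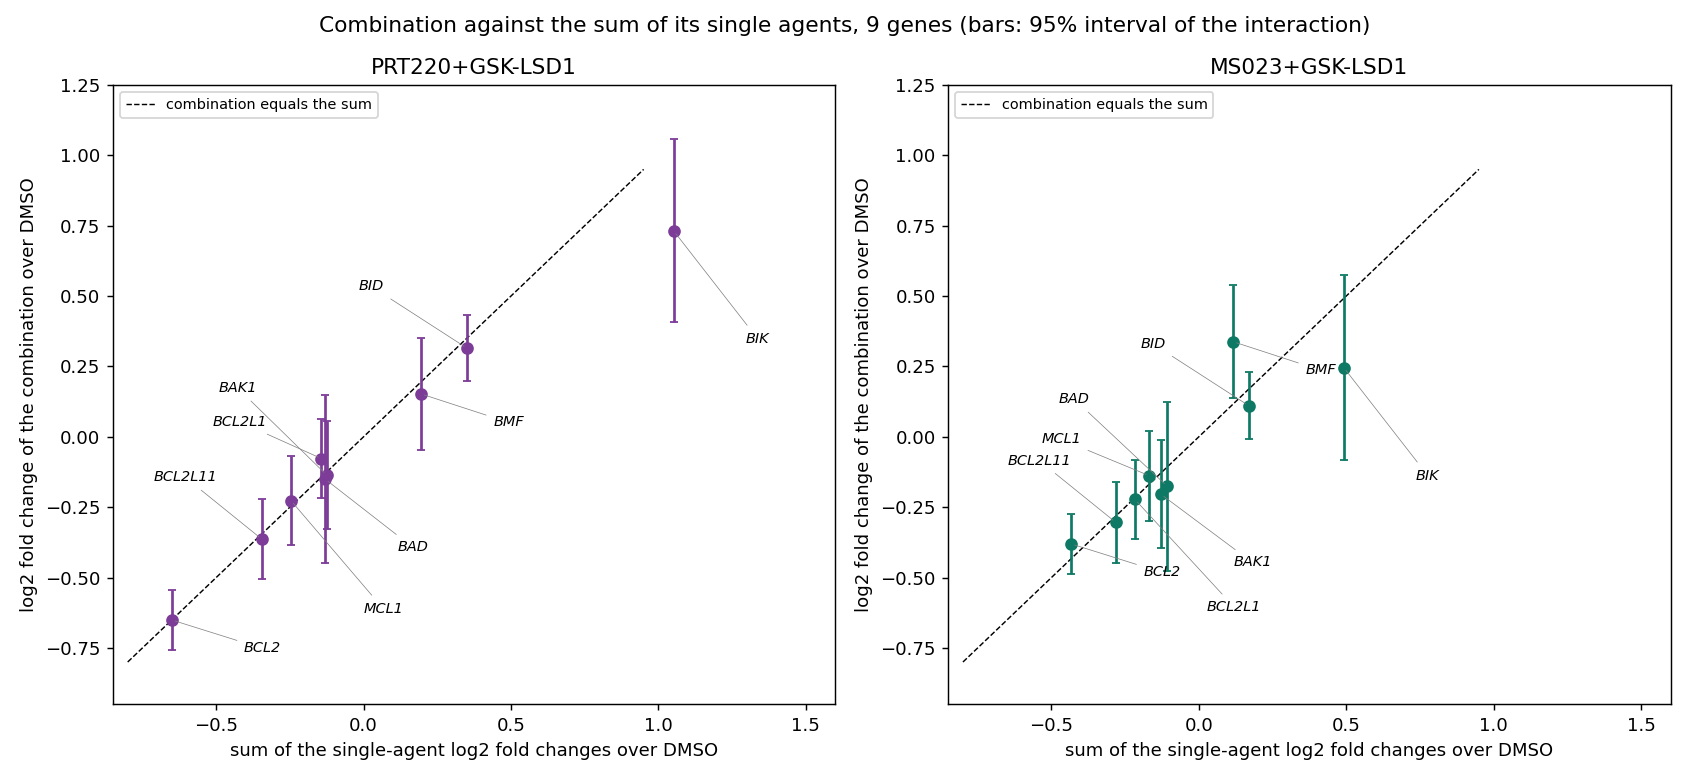
Log2 fold change of each combination over DMSO (vertical axis) against the sum of its single-agent changes (horizontal axis) for 9 family genes, with the 95% interval of the interaction as a bar; BCL2A1 is left out because its intervals span several log2 units. BCL2 lies on the line of equal sum and combination with PRT220 and GSK-LSD1, and BIK lies below it (interaction -0.32).

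In neither combination was a departure from the sum of the single agents called for any member. For PRT220 with GSK-LSD1, 0 of 10 interactions were called by edgeR or by DESeq2, 1 had an unadjusted p below 0.05, and 0.541% of all genes were called (0.102% higher and 0.439% lower). That 1 was BCL2A1 (2.31 ± 0.76, adjusted p = 0.24), which rests on the low counts above. For MS023 with GSK-LSD1, 0 of 10 were called by either tool, 1 (BMF) had an unadjusted p below 0.05, and 0% of all genes were called by edgeR. The intervals, which are somewhat narrow, give only a rough size for what could have been missed. For MCL1 that of the PRT220 interaction was -0.14 to 0.18 and for BCL2L11 -0.16 to 0.13.

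Against its single agents, the combination of PRT220 and GSK-LSD1 gave 2 lower and 0 higher members over PRT220 (38.2% of all genes called, 19.4% higher and 18.8% lower), namely BCL2 and BCL2L11. Over GSK-LSD1 it gave 2 higher and 2 lower (15.3% of all genes called, 7.01% higher and 8.34% lower), namely BID and BIK, and BCL2 and BCL2L11. MS023 with GSK-LSD1 gave 1 higher and 3 lower over MS023 (40% of all genes called, 20% in each direction). These were BMF, and BCL2 (-0.35, adjusted p = 3.3e-07), BCL2L1 (-0.15, adjusted p = 0.026) and BCL2L11 (-0.20, adjusted p = 0.0039). Within the 8 libraries of low RRP9 the BCL2L11 value over MS023 was -0.17, and the call was lost. The BCL2L1 call was lost without MS023 or MS023 with GSK-LSD1 replicate C and in the 16 libraries that kept RRP9. Over GSK-LSD1 it gave 1 higher and 0 lower member, BMF (10.9% of all genes called, 3.37% higher and 7.5% lower). Libraries did not overlap for 3 members in PRT220 with GSK-LSD1 over PRT220 (51.2% of all genes), 5 over GSK-LSD1 (36.4%), 5 in MS023 with GSK-LSD1 over MS023 (46.5%) and 3 over GSK-LSD1 (32%).

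MC4455 and MC4491 were compared with each other for all 10 members, at doses the labels do not give. None was called by edgeR or by DESeq2, 0 had an unadjusted p below 0.05, and 0% of all genes were called by edgeR. Libraries did not overlap for 2 members, against 8.92% of all genes. The difference, MC4455 minus MC4491 on the log2 scale, had a 95% interval of -0.11 to 0.05 for BCL2, -0.15 to 0.08 for MCL1 and -0.21 to 0.26 for BIK. For BCL2A1 it reached from -0.10 to 1.70.

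The balance of summed mRNA levels between the 5 BH3-only and the 4 pro-survival genes differed between groups. The ratio of the sums, on the TPM scale, was 0.601, 0.652 and 0.625 with PRT220 and GSK-LSD1, 0.536, 0.535 and 0.550 with PRT220, 0.502, 0.528 and 0.529 with GSK-LSD1, and 0.394, 0.413 and 0.453 with DMSO. All 9 treated libraries lay above DMSO, and the combination above both single agents. All PRT220 libraries but only replicate C of DMSO are of low RRP9, and that replicate had the highest DMSO ratio (0.453). Low-RRP9 libraries were also highest with MS023 (0.432 and 0.482, against 0.414) and with MS023 and GSK-LSD1 (0.583). That of PRT220 with GSK-LSD1 (0.625) lay between the others of its group. How much of the PRT220 difference goes with low RRP9 was not tested. In the combination the summed pro-survival level was 441 TPM (438 to 444), against 573 TPM (556 to 585) with DMSO, and the summed BH3-only level was 276 TPM (267 to 286), against 240 TPM (227 to 252). BCL2 made up 36.8% of the pro-survival sum in the combination and 44.6% with DMSO, and MCL1 made up 55.5% in the combination and 49.3% with DMSO. The mean ratio was 0.538 with MS023 and GSK-LSD1, 0.496 with MC4455, 0.489 with MC4491 and 0.443 with MS023. These sums are descriptions of mRNA, weighted towards BCL2, MCL1 and BID by their levels, and are not a measure of protein or of cell death. They leave out other family genes described below. Of these, BBC3 fell with GSK-LSD1, and PMAIP1 and BCL2L10 fell with PRT220 and GSK-LSD1 together.

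**Figure D4:**
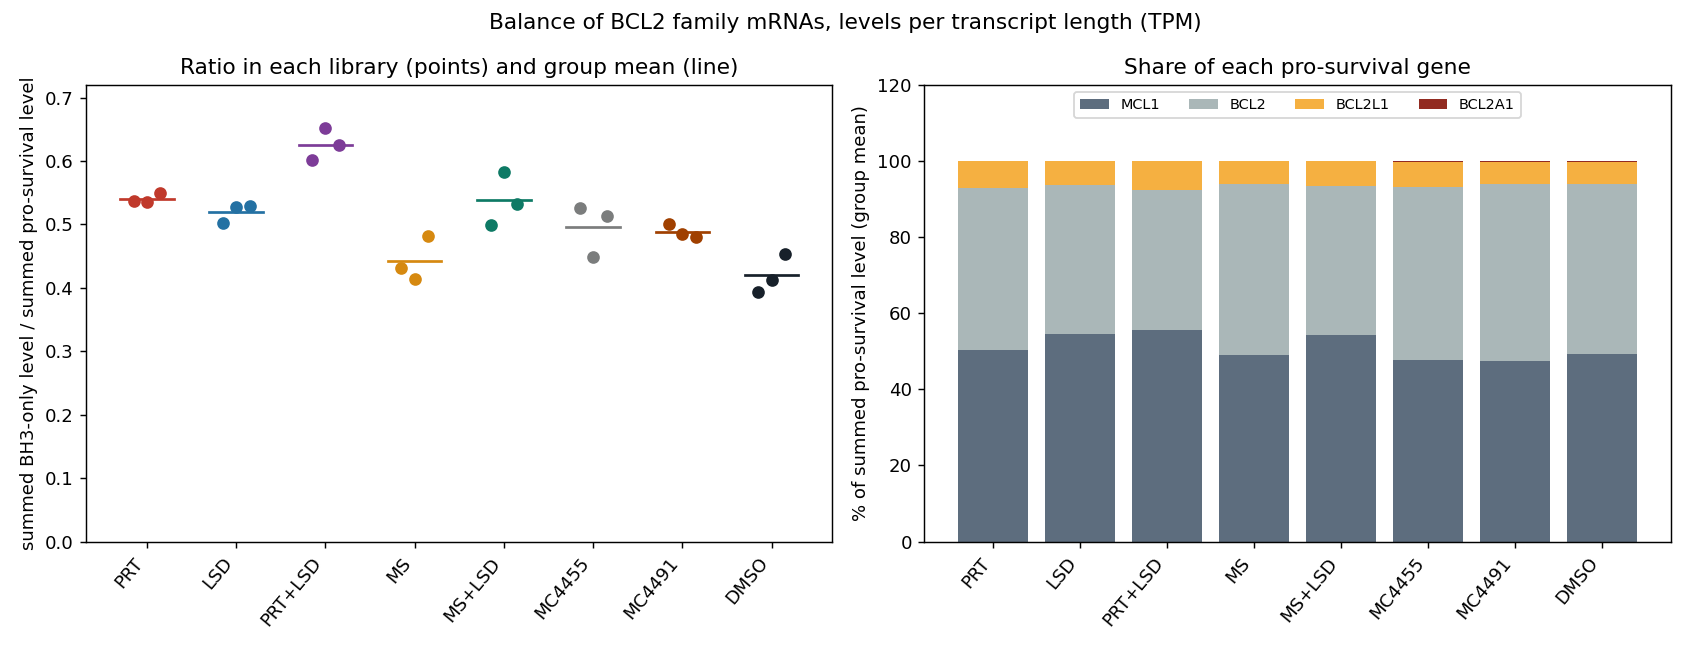
Left, summed TPM of 5 BH3-only genes over summed TPM of 4 pro-survival genes in each library (points) with the group mean (line); right, mean share (%) of each pro-survival gene in their sum; PRT is PRT220, LSD is GSK-LSD1 and MS is MS023. The ratio is 0.601 to 0.652 with PRT220 and GSK-LSD1, against 0.394 to 0.453 with DMSO, and BCL2A1 is too low to be seen.

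Splicing of MCL1 and BCL2L1 can change their function, since the short products lack parts needed for survival activity. The junctions that tell the forms apart are shown in lower case throughout, 15 bases on each side, from GENCODE 29. MCL1-201 skips the middle exon and joins the first exon to the last, and BCL2L1-202, the template of BCL-XS, uses an earlier splice site in the same exon.
MCL1-202, long, exon 1 to 2 (chromosome 1, minus strand, 150578843 to 150578491): agacggccttccaaggcatgcttcggaaac
MCL1-201, short, exon 1 to 3 (chromosome 1, minus strand, 150578843 to 150577491): agacggccttccaaggatgggtttgtggag
BCL2L1-201, long (chromosome 20, minus strand, 31721655 to 31666086): gagaacggcggctgggatacttttgtggaa
BCL2L1-202, short (chromosome 20, minus strand, 31721844 to 31666086): cagagctttgaacaggatacttttgtggaa

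The short forms were minor in every group. MCL1-201, with a coding length of 813 bases against 1050 for MCL1-202, took 1.48% of the reads of MCL1 with PRT220 and GSK-LSD1 (1.22 to 1.63%) and 1.284% with DMSO (1.12 to 1.549%), and MCL1-202 took 87.3% over the 24 libraries. BCL2L1-202, with 510 coding bases against 699, took 5.15 ± 1.55% of the reads of BCL2L1 with the combination, 2.22 ± 0.64% with PRT220 and 4.11 ± 1.69% with DMSO. Neither was called in any of the 7 comparisons with DMSO, by either test below.

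Across all members, 51 transcripts were tested for usage, the share of a gene's reads that a transcript takes, with limma's diffSplice. In simulated usage this test made 225 of its 474 calls in unchanged genes, so a call by it alone is weak. With PRT220, 2 were called, both of BCL2, a share close to the 4.17% of all transcripts tested. BCL2-202, the longest transcript of the gene with 7461 bases, took 48.0 ± 0.46% of the reads of BCL2 with PRT220 and 43.6 ± 1.18% with DMSO (log2 usage difference 0.25 ± 0.07, adjusted p = 0.03). A second test, limma on the log ratio of a transcript to the rest of its gene, gave an adjusted p of 0.0387 with PRT220 and 0.0413 with the combination for this transcript. BCL2-203, with a shorter coding length of 615 bases, took 21.4 ± 0.46% with PRT220 and 25.2 ± 0.66% with DMSO (adjusted p = 0.016), and the log ratio test gave 0.203. Both diffSplice calls with PRT220 were lost with a term for the libraries of low RRP9, without DMSO replicate B, or without PRT220 replicate A or B, and that of BCL2-202 also without DMSO replicate A or PRT220 replicate C (highest adjusted p = 0.15).

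With the combination 3 transcripts were called (4.76% of all), BMF-201, BMF-202 and BCL2L1-203, with MS023 and GSK-LSD1 3 (2.79%), BMF-201, BMF-202 and BCL2-201, with MC4455 2 (3.29%), BMF-201 and BMF-202, and with MC4491 1 (2.67%), BID-205. None of these 9 calls was made by the log ratio test, and those of the combination were lost without DMSO replicate C, those of MS023 and GSK-LSD1 without DMSO replicate A, and that of MC4491 without MC4491 replicate B, where its sign turned. BMF-201 and BMF-202 have the same coding length of 552 bases. BMF-201 took 74.4 ± 9.99% of the reads of BMF with the combination and 60.3 ± 11.7% with DMSO, and these groups overlapped. With GSK-LSD1 0 of 51 were called by either test (1.01% of all by diffSplice), 3 having an unadjusted p below 0.05, and with MS023 also 0 (0.756%), 3 having an unadjusted p below 0.05.

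**Figure D5:**
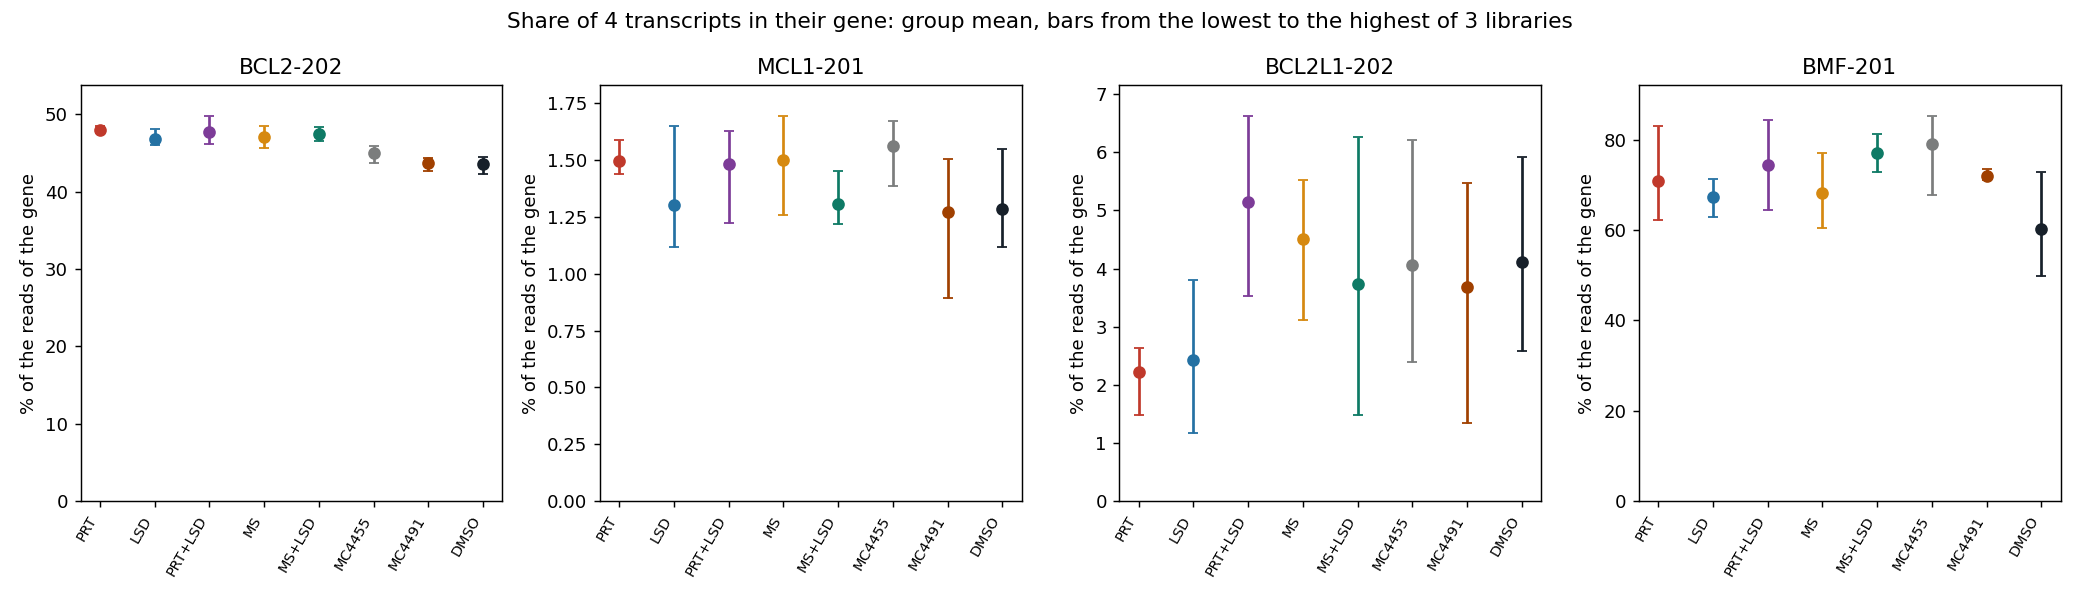
Share (%) of the reads of the gene taken by BCL2-202, MCL1-201, BCL2L1-202 and BMF-201 in each group, with the mean as a point and a bar from the lowest to the highest of 3 libraries; PRT is PRT220, LSD is GSK-LSD1 and MS is MS023. BCL2-202 is at 47.6 to 48.5% with PRT220 and 42.3 to 44.5% with DMSO, while the bars of BMF-201 are wide.

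Of 13 other BCL2 family genes, 12 passed the filter. With PRT220, 1 rose and 1 fell (24.9% of all genes called): BAX, the partner effector of BAK1, had 117.7 ± 2.99 CPM with PRT220 and 84.0 ± 3.79 CPM with DMSO (log2 fold change 0.49, adjusted p = 3.2e-07), and BCL2L12 fell (-0.27, adjusted p = 0.003). With GSK-LSD1, 1 rose and 5 fell (32.6% of all genes called). Those lower included BBC3, which encodes the BH3-only protein PUMA (-0.48, adjusted p = 0.00083), and BCL2L10 (-0.48, adjusted p = 0.026). With both agents 2 rose and 6 fell (46.5% of all genes called), among them BCL2L10 (-0.63, adjusted p = 0.0029), BCL2L15 (0.55, adjusted p = 0.0033), BCL2L12 (-0.43, adjusted p = 1.1e-05) and PMAIP1, which encodes the MCL1-binding protein NOXA (-0.37, adjusted p = 0.0015). With MS023 0 were called, with MS023 and GSK-LSD1 3 rose and 5 fell, with MC4455 2 rose and 4 fell, and with MC4491 2 rose and 4 fell. For this and the following lists, the shares of all genes called were 24.9% with PRT220, 32.6% with GSK-LSD1, 46.5% with both, 2.25% with MS023, 48.4% with MS023 and GSK-LSD1, 37.6% with MC4455 and 30.7% with MC4491. Genes of these lists were not recomputed under other settings or with libraries left out. All PRT220 libraries but only replicate C of DMSO are of low RRP9, and how far their PRT220 changes go with it was not tested.

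Downstream of the mitochondrion, 3 of 14 apoptosome, caspase and IAP genes rose and 5 fell with both agents, where 46.5% of all genes were called. CYCS, which encodes cytochrome c, had 174 CPM on average with the combination and 247 CPM with DMSO (-0.51, adjusted p = 6.2e-07), HTRA2 fell (-0.47, adjusted p = 1.3e-05), CASP6 rose (0.49, adjusted p = 0.00013) and BIRC3, under 1 CPM on average in both groups, rose (1.33, adjusted p = 0.024). The counts were 2 higher and 3 lower with PRT220 (24.9%), 2 and 4 with GSK-LSD1 (32.6%), 0 and 0 with MS023 (2.25%), 2 and 7 with MS023 and GSK-LSD1 (48.4%), 2 and 6 with MC4455 (37.6%) and 2 and 5 with MC4491 (30.7%).

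Of 10 genes of the death receptor route that leads to BID, 3 rose and 3 fell with both agents, where 46.5% of all genes were called. The adaptor FADD fell (-0.31, adjusted p = 0.00053) and CFLAR, an inhibitor of caspase-8, rose (0.28, adjusted p = 0.026). They are 1 of the 3 lower and 1 of the 3 higher genes, picked with their values known, and do not stand for the list. The counts were 1 higher and 1 lower with PRT220 (24.9%), 3 and 2 with GSK-LSD1 (32.6%), 0 and 1 with MS023 (2.25%), 3 and 4 with MS023 and GSK-LSD1 (48.4%), 1 and 2 with MC4455 (37.6%), and 0 and 2 with MC4491 (30.7%).

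Of 11 genes for turnover or phosphorylation of MCL1, BIM and BAD proteins, 3 rose and 5 fell with both agents, where 46.5% of all genes were called. PIM1, a kinase that phosphorylates BAD, had 155 ± 22.1 CPM with both agents, 246 ± 20.8 CPM with PRT220, 211 ± 20.7 CPM with GSK-LSD1 and 327 ± 32.7 CPM with DMSO. It had a log2 fold change of -1.07 with both agents (adjusted p = 1.2e-08), -0.41 with PRT220 (adjusted p = 0.0028) and -0.63 with GSK-LSD1 (adjusted p = 2.3e-05). USP9X, which removes ubiquitin from MCL1, rose with both agents (0.19, adjusted p = 1.2e-05). It is 1 of the 3 higher genes, picked with its value known. The counts were 0 higher and 1 lower with PRT220 (24.9%), 3 and 4 with GSK-LSD1 (32.6%), 0 and 0 with MS023 (2.25%), 3 and 5 with MS023 and GSK-LSD1 (48.4%), 1 and 2 with MC4455 (37.6%), and 0 and 2 with MC4491 (30.7%).

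Of 15 transcription factors known to act on members, 6 rose and 5 fell with both agents, where 46.5% of all genes were called. FOXO3, an activator of BCL2L11, had 36.3 ± 3.57 CPM with both agents and 63.1 ± 3.00 CPM with DMSO (-0.80, adjusted p = 5e-08). FOXO1 rose at a low level (1.98, adjusted p = 1.3e-06), MYC fell (-0.55, adjusted p = 7.4e-07) and NFKB1 rose (0.54, adjusted p = 1.2e-08). The counts were 2 higher and 2 lower with PRT220 (24.9%), 5 and 4 with GSK-LSD1 (32.6%), 1 and 1 with MS023 (2.25%), 6 and 6 with MS023 and GSK-LSD1 (48.4%), 0 and 3 with MC4455 (37.6%), and 1 and 2 with MC4491 (30.7%). Of the drug targets, PRMT5 fell by 0.21 (adjusted p = 0.0047) and KDM1A, which encodes LSD1, by 0.24 on the log2 scale with both agents (adjusted p = 8.1e-05); these agents act on the proteins, so the mRNA is no check of the treatment.

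The genes whose level over the 24 libraries was most like that of a member are given as a description, by Pearson's r of log2 CPM, with group and library composition shared by all points. They were DENND4A for BCL2 (r = 0.96), RHOB for MCL1 (0.86), DNAJA1 for BCL2L1 (0.85), UNC5C for BCL2L11 (0.91), RAD54L2 for BID (0.93), BHLHE40 for BMF (0.89), IPO13 for BAK1 (0.83), PDXP for BAD (0.78) and IFFO1 for BIK (0.93). For BCL2A1 it was ADGRE4P (0.87), at low counts.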

How the data were processed

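Gene and transcript values were measured in 24 libraries by poly(A) RNA sequencing. Both tables were deposited with estimated counts and without scaling between libraries, a unit judged from the values because no source gives it. The submitters' processing notes name GRCh38, DESeq2 1.28.1, STAR 2.7.3a, Salmon 1.2.1 and R 4.0.0, without role or order. The annotation release is not given in the sources used here. Gene counts were rounded and fitted in R 4.3.3 with edgeR 4.0.16 (TMM, filterByExpr, glmQLFit and glmQLFTest, all libraries in 1 fit, no replicate block). Of 38048 genes, 16640 were tested, and a call is an adjusted p (Benjamini-Hochberg) below 0.05. There were 14 comparisons. Standard errors are the log2 fold change divided by the root of F, and 95% intervals are 1.96 of these. Such intervals are somewhat narrower than the F test implies. For BAK1 with both agents the interval was -0.27 to -0.0005, at an unadjusted p of 0.063 in edgeR. Transcripts were paired with genes through GENCODE 29 (167049 of 178398, 96.6 to 96.8% of reads), which also gave symbols, coordinates and sequences; TPM was computed over paired transcripts. Usage was tested with limma 3.58.1 (voom, diffSplice) on 74383 transcripts. Alternatives used DESeq2 1.42.0, other filters, terms and libraries left out. Figures were drawn with matplotlib.

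In data simulated for PRT220 against DMSO on 16465 genes, edgeR recovered 19, 32, 37 and 41 of 50 genes changed 1.25-, 1.5-, 2- and 3-fold, and 3 of its 132 calls were unchanged genes. In simulated usage diffSplice made 225 of 474 calls in unchanged genes, and the log ratio test, added for that reason after seeing the data, 24 of 225. Columns A to C were not treated as pairs: correlations of same-letter deviations ran from -0.42 to 0.33. None of the 24 same-group pairs of libraries was identical, and the lowest chi-square per gene was 5.43. The members and gene lists were chosen with earlier results of these data known. The named genes were the 10 members, up to 4 called genes with the largest change per list (of which the text uses some), the most alike gene per member, and RRP9, PRMT5 and KDM1A; USP9X, FADD and CFLAR were chosen after their values were seen where they fall outside this. One gene of the transcription factor list is not reported here.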

Additional observations from a re-analysis of the deposited data

How the results depend on the processing

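Of 140 member tests, 44 were called, and 24 of these kept their call under each of up to 8 other settings and each left-out library, the fit of the 8 libraries of low RRP9 not counted; all recomputed called values kept their direction. The 24 included BCL2 with PRT220, GSK-LSD1, both, MS023 with GSK-LSD1 and MC4455, and BID, BIK, MCL1 and BCL2L11 with both agents. In those 8 libraries, where 16 of the 24 have a value, DMSO and both combinations are unreplicated, so a call kept or lost there is weak. BCL2 with PRT220 lost its call at -0.17 (-0.24 in the full fit) and BCL2L1 with MS023 and GSK-LSD1 at -0.20 (-0.22). BCL2L11 lost its calls with both agents at -0.29 (-0.36) and over PRT220 at -0.18 (-0.20). With MS023 and GSK-LSD1 it lost them over DMSO at -0.22 (-0.30) and over MS023 at -0.17 (-0.20). Among 1472 recomputed uncalled values, 23 gained a call.

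Members called fell with only the compared groups in the fit to 3 for GSK-LSD1 (6 in the full fit), 3 for MC4455 (5) and 2 for MC4491 (5), where fewer samples estimate the spread. In the 16 libraries that kept RRP9 they were 3 for MC4491, 2 for MS023 with GSK-LSD1 over MS023 (4) and 0 over GSK-LSD1 (1). With protein-coding transcripts only MC4455 gave 3. A replicate block and a term for low RRP9 each gave 0 for MS023 with GSK-LSD1 over GSK-LSD1. In the 8 libraries of low RRP9, chosen after seeing the data, PRT220 gave 3 (5), MS023 with GSK-LSD1 3 (7) and 2 over MS023, and the PRT220 combination 1 over PRT220 (2). The block left the other member counts within 1.5 times; every letter correlated above 0.1 in 1 of 12 comparisons, PRT220 with GSK-LSD1 over DMSO, where the block kept all 5 calls.

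Changed transcripts by the log ratio numbered 1 for PRT220 (2), 1 for the PRT220 combination (3), 0 for MS023 with GSK-LSD1 (3), 0 for MC4455 (2) and 0 for MC4491 (1). Transcripts of at least 5% share gave 1 for MS023 with GSK-LSD1. The RRP9 term gave 0 for PRT220 and 5 for the combination.

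Leaving out 1 library gave 4 to 5 members for PRT220, 4 to 5 for GSK-LSD1, 5 to 6 for both, 6 to 8 for MS023 with GSK-LSD1, 2 to 5 for MC4455, 2 to 4 for MC4491, 2 to 3 for the combination over GSK-LSD1 (4), 2 over PRT220, 3 to 5 for MS023 with GSK-LSD1 over MS023 and 0 over GSK-LSD1. For changed transcripts it gave 1 to 2 for PRT220, 0 to 4 for the combination, 0 to 5 for MS023 with GSK-LSD1, 2 for MC4455 and 1 to 3 for MC4491. The usage difference of BID-205 with MC4491 ran from -5.81 without MC4491 replicate A to 0.293 without MC4491 replicate B, a reversal. Where no reason is given, the cause was not tested.

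Of 115 all-gene counts, 23 moved by over 1.5 times. For MS023 the 375 calls became 626 with DESeq2, 599 with the RRP9 term, 0 with 2 groups, 9 in the 16 libraries and 6 in the 8. For the PRT220 interaction 90 became 54 without the filter, 198 with DESeq2 and 53 with the groups compared; for the MS023 interaction 0 became 19 with DESeq2 and 2 in the 16. For MC4455 over MC4491 0 became 1 without the filter, 18 with DESeq2, 4 with 2 groups and 1 in the 16. For MC4491 5112 became 2963 with 2 groups. MS023 with GSK-LSD1 over GSK-LSD1 went to 1146 without the filter and 2945 with the RRP9 term (1808), and over MS023 to 3359 in the 16 and 3536 in the 8 (6659). The 8 libraries gave 1953 for PRT220 (4139), 3758 for the combination (7735), 2890 for MS023 with GSK-LSD1 (8054) and 3167 for the combination over PRT220 (6350). BCL2A1 rests on at most 29 counts a library.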
